A study of Mus musculus with 2 samples.

Results

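Balanced alternative junctions are exon-exon joins that compete at a splice site with at least one other join of similar abundance. They were examined in polyadenylated RNA from thymus of C57BL/6J mice, which are inbred, at an age of 8 weeks. The 2 libraries, biological replicates 1 and 2, form 1 group. A junction was taken where it shared its chromosome, strand and one end with another whose other end lay more than 50 bases away. Both also had to hold at least 50 reads and at least 20% of all reads at the shared end. This gave 3678 of 532115 listed junctions (0.691%), or 4.72% of the 77884 junctions with at least 50 reads, at 2110 shared ends. The labels describe mixed-sex littermates pooled per sample, with no treatment, so the data describe 1 tissue and compare 2 libraries. The labels list a single donor entry for both, so the spread between them may be technical in part. The junctions were chosen by their read counts and by their shares of the reads at the end, so these are given as a description.

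In splicing, the donor site at the start of an intron is joined to the acceptor site at its end, and the intron is removed. A cassette exon is included when both neighbouring introns are removed singly, and skipped when 1 longer junction joins its neighbours. A donor shared by several acceptors can also mark alternative last exons or shifted acceptor sites, and an acceptor shared by several donors can mark alternative promoters with different first exons. An exon whose length is a multiple of 3 bases leaves the reading frame after it intact whether it is included or skipped. Developing T cells are known for regulated exons in the phosphatase CD45 (Ptprc), in the Ikaros zinc finger factor (Ikzf1) and in the co-receptor CD8 alpha (Cd8a).

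The exons below are coding exons with balanced junctions at both edges, or at 1 edge for Tcf12, and they are shown because the choice between the 2 introns adds or removes these letters from the RNA. Each is in transcript sense, 5′ to 3′. Capitals mark the cassette exon and lower case marks 10 bases of the exon on either side. Letters were read from GENCODE M21 transcripts that hold both flanking introns, and positions are those of the exon in the mm9 junction list.
Cd8a exon of 31 bases, chr6:71325882-71325912, plus strand: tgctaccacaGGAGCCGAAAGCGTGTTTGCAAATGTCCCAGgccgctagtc
Ptprc exon of 147 bases, chr1:140016597-140016743, minus strand: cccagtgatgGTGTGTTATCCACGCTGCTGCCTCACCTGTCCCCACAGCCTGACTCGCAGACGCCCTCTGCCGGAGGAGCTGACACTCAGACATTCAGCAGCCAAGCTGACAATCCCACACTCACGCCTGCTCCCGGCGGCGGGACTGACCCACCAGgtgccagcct
Bcl11b exon of 216 bases, chr12:109203882-109204097, minus strand: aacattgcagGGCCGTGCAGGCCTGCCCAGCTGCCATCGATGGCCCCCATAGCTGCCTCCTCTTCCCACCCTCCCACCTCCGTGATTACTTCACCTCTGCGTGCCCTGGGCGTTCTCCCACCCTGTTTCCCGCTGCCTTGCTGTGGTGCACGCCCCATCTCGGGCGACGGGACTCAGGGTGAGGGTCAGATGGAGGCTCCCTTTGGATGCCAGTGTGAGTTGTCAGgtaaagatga
Ikzf1 exon of 261 bases, chr11:11648314-11648574, plus strand: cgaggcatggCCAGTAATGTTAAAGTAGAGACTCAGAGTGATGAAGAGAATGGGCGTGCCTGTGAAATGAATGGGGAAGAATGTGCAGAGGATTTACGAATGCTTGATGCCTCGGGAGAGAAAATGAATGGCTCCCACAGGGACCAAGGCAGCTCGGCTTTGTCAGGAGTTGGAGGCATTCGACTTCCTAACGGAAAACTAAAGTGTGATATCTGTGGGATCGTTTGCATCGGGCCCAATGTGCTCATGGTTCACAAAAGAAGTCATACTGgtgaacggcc
Tcf12 exon of 72 bases, chr9:71716806-71716877, minus strand: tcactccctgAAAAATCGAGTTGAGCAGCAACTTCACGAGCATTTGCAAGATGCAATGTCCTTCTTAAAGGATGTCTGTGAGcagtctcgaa
Ptbp1 exon of 78 bases, chr10:79322862-79322939, plus strand: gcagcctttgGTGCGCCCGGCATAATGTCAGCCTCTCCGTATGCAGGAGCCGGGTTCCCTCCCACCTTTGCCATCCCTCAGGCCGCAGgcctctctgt
Hdac7 exon of 111 bases, chr15:97639091-97639201, minus strand: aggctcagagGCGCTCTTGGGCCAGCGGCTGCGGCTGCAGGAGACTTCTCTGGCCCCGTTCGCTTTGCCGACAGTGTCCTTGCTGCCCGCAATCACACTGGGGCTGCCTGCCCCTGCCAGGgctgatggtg
Pcbp2 exon of 93 bases, chr15:102316379-102316471, plus strand: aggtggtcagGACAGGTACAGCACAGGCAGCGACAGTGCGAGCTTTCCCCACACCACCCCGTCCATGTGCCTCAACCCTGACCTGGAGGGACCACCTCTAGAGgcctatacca

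Among these 8 exons, the 31 bases of Cd8a alone are not a multiple of 3. Inclusion was computed as the mean of the reads entering and leaving the exon over that mean plus the skipping reads. By this measure the Pcbp2 exon stood highest, at 67.6%, followed by Cd8a at 61.8%. The exons of Bcl11b (46.5%), Ikzf1 (45.0%), Ptprc (41.1%) and Hdac7 (40.7%) lay between, and those of Ptbp1 (26.6%) and Tcf12 (20.1%) were lowest.

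The list held 38.9 M junction reads, 17.2 M in the first and 21.7 M in the second of 2 library entries that each junction carries and that no label ties to a numbered replicate. The gene tables held 49.3 and 63.1 M estimated fragments in replicates 1 and 2. Thymocyte markers were high in both (Cd3e at 354.84 and 254.41 TPM, Rag1 at 276.32 and 275.64), TPM being the authors' length-scaled transcript abundance. Krt5 of epithelium (117.4 and 133.63 TPM), C1qa of macrophages (156.8 and 203.05) and Cd79a of B cells (36.83 and 30.15) were present too. In such bulk tissue, fewer cells of a type and less RNA per cell cannot be told apart. Of the 12 heart and skeletal muscle genes examined after the values were seen, 12 were higher in replicate 2, with a summed level of 187 TPM in replicate 1 and 2543 TPM in replicate 2.

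The balanced junctions carried 1.505 M reads, 3.86% of the list, with a median of 150 reads per junction and 323 per shared end. A donor was shared at 978 ends and an acceptor at 1132. Most ends had 2 balanced junctions (2007), while 100 had 3 and 3 had 4. Both ends of 648 junctions were shared in this way. Of the ends with 2 junctions that reached the read and distance minimums, 59.3% also passed the share minimum, which the rule fixes. Just inside the share minimum lay an acceptor of Sh2b1, an adaptor of receptor signalling, with a minor junction at 20%, and a donor of Ahdc1 at 20.0441%. Just outside lay an acceptor of Sbno2 at 19.9792%, a donor of Ift20 at 19.967% and a second donor of Ptprc at 19.9369%. The values either side of the threshold thus differed by less than the counting error of these ends.

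A flag in the list that appears to mark annotated introns (99.8% of flagged junctions had the length of an annotated intron on their chromosome, against 44.5% of the others) was set for 71.5% of balanced junctions. It was set for 94.99% of all junctions with at least 50 reads. Because the annotation at hand is on another build than the list, a gene name was given only where the lengths of introns that share an end matched those of 1 gene. This named 1244 of the 2110 ends in 842 genes. Where all junctions of an end carried the flag, 1007 of 1034 ends were named, and where they did not, 237 of 1076 were. All 835 named genes found in the gene tables reached 1 TPM, and their median level was 56.99 TPM. An end was named in 6.39% of protein-coding genes at 1 TPM or more, and in 14.7% of those at 50 TPM or more. The minimum of 50 reads was set on the same libraries, so these levels and percentages follow in part from the rule.

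The distance between competing ends had a median of 2948 bases and ran from 51 to 695790 bases. Naming each splice site by the lengths of intron, exon and intron divided the ends into 1284 within 1 gene, 217 that joined 2 or more genes, 370 named in part and 239 unnamed. Within 1 gene the median distance was 1475 bases, with quartiles of 430 and 4789 bases. Ends that joined different genes had a median distance of 50907 bases, with quartiles of 31305 and 78680 bases. Longer distances follow in part from the grouping, which places the sites in different genes.

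**Figure D1:**
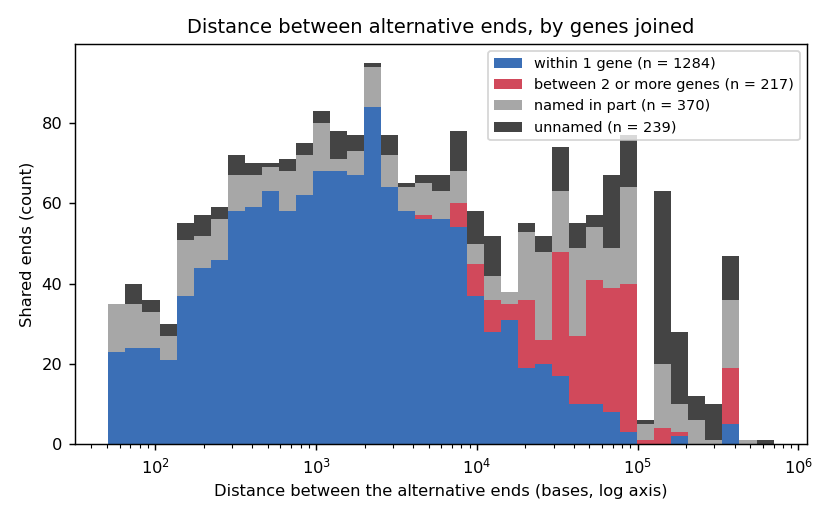
Number of shared ends by the distance between their competing ends in bases (log axis), with stacked colours for ends within 1 gene (1284), between genes (217), named in part (370) and unnamed (239). Ends within 1 gene centre on a median of 1475 bases and ends between genes on a median of 50907 bases.

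Some of the most read named ends lay in T cell receptor and co-receptor genes, although the most read of all lay in Cd74. Cd8a encodes the alpha chain of CD8, which binds MHC class I, and skipping of its short exon is known to give a form without the cytoplasmic tail. At the Cd8a donor, the intron to the exon had 5369 reads in the first library and 6672 in the second, and the skipping intron had 2310 and 3047. The intron to the exon thus took 69.9% and 68.6% of the reads at that donor. At the acceptor after the exon, the intron from the exon (2346 and 2960 reads) and the skipping intron were nearly even, at 50.3% and 49.2% for the former. Each Cd8a share thus differed by under 2 points between the libraries. Here and below, differences between the library entries were tested with a two-sided Fisher's exact test of the most read junction at an end against all its other reads, adjusted over all shared ends. The units of this test are reads, so its p covers counting error only and not the spread between libraries. The adjusted p was 0.64 at the donor, for the intron to the exon, and 0.886 at the acceptor, for the skipping intron, by this exact test. The reads entering the exon (12041) exceeded those leading from it to that acceptor (5306).

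Ptprc encodes CD45, the phosphatase that sets the activity of Src kinases in T cells and whose extracellular exons vary. The donor before the 147-base exon had 1463 and 1797 reads to the exon and 1482 and 2110 reads past it, so 46.6% and 42.9% led to the exon. At the acceptor after it, 830 and 933 reads came from the exon and 1482 and 2110 from the skipping intron. The share from the exon was 31.9% in the first library and 27.5% in the second. The skipping intron, the most read, took 57% and 62.2% (adjusted p of 0.0182, Fisher's exact test). At the donor, where the skipping intron was also the most read, the adjusted p was 0.299 in that test. By junction reads, exon inclusion was thus the minor choice at both ends of the Ptprc exon in both libraries. At the donor in the first library the 2 choices were nearly even, at 46.6% into the exon and 47.2% past it. Transcript shares, given below, favoured inclusion.

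Other genes of receptor signalling had fewer reads. Cblb, a ubiquitin ligase that restrains signalling, had 80 and 73 reads into a cassette exon and 77 and 134 past it. Mapk14, the kinase p38 alpha, had 163 and 216 reads for the nearer of 2 acceptors and 57 and 60 for the farther. Nfatc1, a calcium-regulated factor, had 158 and 122 reads from the nearer and 82 and 91 from the farther of 2 donors that GENCODE M21 gives only to first exons. None of these had an adjusted p under 0.05 in that test. Of 38 listed receptor signalling genes, 5 held a balanced end (13.2%), at 9 ends of which 6 belonged to cassette exons. The gene lists were drawn up with earlier results of these data known, and their counts are read beside the 6.39% and 14.7% above.

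Of 27 listed T cell transcription factors, 12 held a balanced end (44.4%), with 16 ends and a median minor share of 31.5% against 33.0% over all 1244 named ends. Bcl11b, the factor that commits cells to the T lineage, had 1287 and 1063 reads from a donor into its 216-base exon and 1275 and 1188 past it. The share into the exon was 50.1% and 47.2%. At the acceptor after the exon, 39.8% and 34.9% of reads came from the exon (1110 and 815 reads). The skipping intron, the most read there, took 45.7% and 50.9% (adjusted p of 0.0443, Fisher's exact test). At the donor, where the skipping intron was also the most read, the adjusted p was 0.532 in that test. The skipping intron of Bcl11b was 72050 bases long, and those on either side of the exon measured 23577 and 48257 bases.

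Ikzf1 encodes Ikaros, and the 261-base exon holds the first of its DNA-binding zinc fingers. From the donor before the exon, 147 and 127 reads entered it and 400 and 351 passed it, so 26.3% and 25.8% led to the exon. At the acceptor after it, 517 and 436 reads came from the exon and 400 and 351 from the skipping intron, or 56.2% and 55.2% from the exon. By junction reads, the exon was thus the minor choice at the donor and the major one at the acceptor, in both libraries. Transcript shares, given below, put inclusion lower at both ends. More reads left the exon (953) than entered it from that donor (274).

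Satb1, an organiser of chromatin in thymocytes, had the third most read named end. Its donor had 2496 and 1992 reads to the nearer acceptor and 4370 and 4283 to an acceptor 1729 bases farther on. The nearer took 30.7% and 27.0%. The farther, the most read, took 53.7% and 58.1% (adjusted p of 5.94e-05, Fisher's exact test). Myb, a factor of progenitor growth, had 437 and 630 reads from a 357-base exon and 861 and 1272 past it, or 32.9% and 32.3%. The Myb exon was balanced at that edge only, as 222 reads over both libraries entered it against 2133 past it. Tcf12 (HEB), an E protein, had 66 and 104 reads from its 72-base exon and 256 and 361 past it, or 20.5% and 22.4%. The Myb and Tcf12 shares differed by under 2 points between libraries, and the skipping introns, the most read, had adjusted p of 1 and 0.936 in that test.

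Tcf3, which encodes the E proteins E12 and E47, had 421 and 488 reads for the shorter and 201 and 218 for the longer intron into 1 acceptor. At a donor of Tcf3, the order was the opposite, with 96 and 137 reads for the shorter and 220 and 358 for the longer intron. Lef1, a partner of beta-catenin, had 274 and 233 reads from the nearer and 744 and 812 from the farther of 2 donors that lie only on annotated first exons. Runx1 had 130 and 153 reads into an exon and 119 and 70 past it, so that 51.4% and 68.3% led to the exon (adjusted p of 0.0408, Fisher's exact test). Balanced ends of Elf1, Foxp1 and Zbtb7b lay 5972 to 66695 bases apart, with 131 to 551 reads each.

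**Figure D2:**
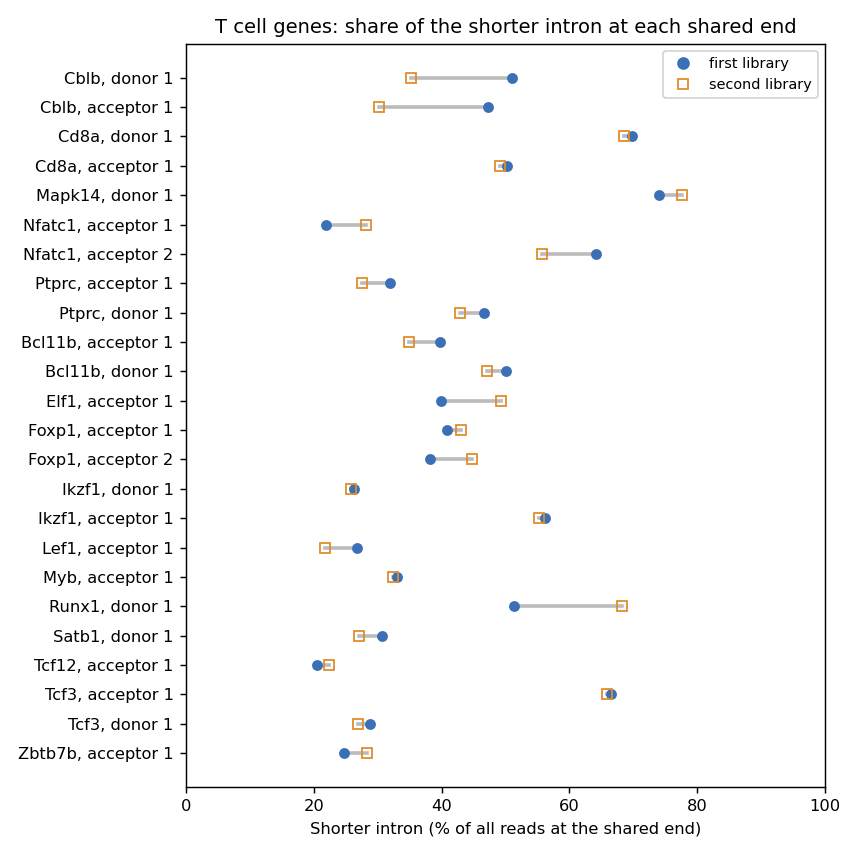
Share of the shorter intron (% of all reads at the shared end) at balanced ends of listed T cell receptor signalling genes (top 9 rows) and T cell transcription factors (bottom 15 rows), with a filled circle for the first and an open square for the second library. The symbols nearly coincide for Cd8a, Ikzf1 and Myb and lie farthest apart for Cblb and Runx1.

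Splicing regulators are known to be spliced in alternative ways themselves. Of 56 listed, 26 held a balanced end (46.4%), with 48 ends, 29 of them of cassette exons. Ptbp1, the polypyrimidine tract binding protein, had 617 and 617 reads into its 78-base exon and 1640 and 1674 past it, or 27.3% and 26.9%. Hnrnpd (AUF1), which binds AU-rich RNA, had 105 and 123 reads from a cassette exon and 28 and 35 past it. Its relative Hnrnpdl had 84 and 174 reads from an exon and 31 and 54 past it. Hnrnpl, a repressor of Ptprc exons, had 225 and 332 reads from an exon and 1042 and 1141 past it.

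Mbnl1, a muscleblind protein, had 5 balanced ends. One acceptor of Mbnl1 drew on donors 329 bases apart, with 380 and 247 reads for the shorter intron and 186 and 238 for the longer. The shorter took 49.8% and 37.9% (adjusted p of 0.00469, Fisher's exact test). A second Mbnl1 acceptor had 61.1% and 70.5% for the longer intron, the most read (adjusted p of 0.0492 in that test), and the other 3 ends had adjusted p from 0.217 to 1. Celf2 had 278 and 286 reads into its 144-base exon and 171 and 145 past it. Sf1, which recognises the branch point, had 1196 and 1035 reads to the nearer of 2 acceptors and 619 and 658 to the farther. Of the 48 ends, 2 differed between the libraries by that test, both in Mbnl1, beside 54 of all 1244 named ends (4.34%).

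Among 27 listed chromatin genes, 7 held a balanced end (25.9%), with 12 ends. Hdac7, a deacetylase of thymocytes, had 1143 and 1267 reads into its 111-base exon and 1772 and 1974 past it, or 38.9% and 38.8%. At the acceptor after the exon, 45.2% and 39.0% came from the exon. The skipping intron, the most read there, took 54.7% and 61.0% (adjusted p of 0.000353, Fisher's exact test). The donor before the exon was not called by that test. Ehmt2 (G9a), a histone methyltransferase, had 100 and 113 reads into an exon and 42 and 41 past it. Kdm1a, a histone demethylase, had 49 and 52 reads from an exon and 32 and 34 past it. Of 20 detected genes of cell death and survival, 1 held a balanced end: Mdm2, the ligase that degrades p53, had 91 and 70 reads from an exon and 48 and 40 past it.

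Of 32 listed cytoskeleton and adhesion genes matched, 11 held a balanced end (34.4%), with 16 ends. Dnm2, the membrane-cutting dynamin, had 823 and 903 reads to the nearer and 592 and 658 to the farther of 2 acceptors 1090 bases apart, and another balanced junction at that donor held 28.7% of the reads. Arhgap4, a GTPase activator of blood cells, had 582 and 707 reads from an exon and 251 and 310 past it. Myl6, a light chain of myosin, had 58 and 143 reads into an exon and 28 and 39 past it. Pkm and Tpm1 of this list differed most between the libraries and are given below.

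The other most read named ends lay in genes of antigen presentation, migration and RNA binding. Cd74, the invariant chain of MHC class II, had 1890 and 2604 reads from a cassette exon and 6126 and 9076 past it, or 23.6% and 22.3%. Raly, an RNA-binding protein, had 5293 and 3864 reads for a 29458-base intron and 3051 and 2315 for one of 65720 bases. Pcbp2, a poly(C)-binding protein, had 4559 and 5415 reads into its 93-base exon and 1534 and 1698 past it. Over both libraries, 9974 reads entered the Pcbp2 exon and only 3513 led from it to the acceptor after it. Tbata, a gene of thymus and testis, had 2313 and 3626 reads to the nearer of 2 acceptors 102 bases apart and 719 and 1351 to the farther. The shares in these 4 genes differed by under 4 points between the libraries.

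Ccr9, the chemokine receptor that guides cells to the thymus and gut, had 2280 and 2609 reads into an exon and 1594 and 2472 past it. The share into the exon was 56.96% and 49.7% (adjusted p of 1.5e-08, Fisher's exact test). Ldb1, a co-factor of LIM and GATA proteins, had 2198 and 2608 reads from the nearer and 2016 and 1785 from the farther of 2 donors that lie only on annotated first exons. The nearer took 51.6% and 58.2% (adjusted p of 1.4e-06 in that test). The Ccr9 and Ldb1 shares therefore moved by about 7 points between libraries of the same tissue.

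The longest distances of named ends were 121453 bases in Ldlrad4, 94307 at an end named Gbp4, 85233 in Ahcyl2, 80671 in Evl and 77697 in Ssbp2. By its single sites, the end named Gbp4 joined Gbp4 to the similar gene Gbp8, so it is one of the ends between genes given below and is uncertain. The shortest distance, 51 bases, was found in Mtch1, Ankhd1, Stx16 and Ppp4r1. At Mtch1, a mitochondrial carrier homologue, 200 and 281 reads used the nearer donor and 484 and 555 the farther. The most even named ends included an acceptor of Ddx5, an RNA helicase, with 233 and 203 reads for the shorter and 193 and 243 for the longer intron, 436 in total for each.

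By structure, 821 ends belonged to a cassette exon, 717 joined alternative donors to 1 acceptor and 572 joined alternative acceptors to 1 donor. Of the 331 named ends of the second kind with annotated transcripts for both introns, both donors lay only on first exons at 134 (40.5%) and 1 of them did at 104. Of the 231 such ends with alternative acceptors, both acceptors lay only on last exons at 23 (9.96%) and 1 did at 45. Small shifts of at most 300 bases made up 125 of the 717 donor ends, of which 44 (35.2%) were shifts by a multiple of 3. They made up 116 of the 572 acceptor ends, of which 47 (40.5%, exact 95% interval 31.5% to 50.03%) were.

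The junctions outlined 535 cassette exons of at most 1000 bases with at least 1 balanced end, of a median length of 105 bases and a median inclusion of 59.0%. A length divisible by 3 was found for 291 (54.4%, exact Clopper-Pearson 95% interval 50.1% to 58.7%). Of 382 cassette exons of the same list without a balanced end, with a median inclusion of 88.5%, 180 had such a length (47.1%, 42.0% to 52.3%). These intervals cover counting error only, as do all in this text, and overlap. An annotated exon matched 409 of the 535.

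Among the matched exons, 283 were coding throughout, and 193 of these (68.2%, 62.4% to 73.6%) had a length divisible by 3. The share was 20 of 56 (35.7%, 23.4% to 49.6%) for partly coding exons and 19 of 54 (35.2%, 22.7% to 49.4%) for untranslated ones. The interval of the coding exons lay above both of the others. Among coding exons the share was lower at higher inclusion, given as a description with no test: 50 of 57 (87.7%) at an inclusion of 20 to under 40%, 53 of 73 (72.6%) at 40 to under 60%, 66 of 110 (60%) at 60 to under 80%, and 18 of 36 (50%) at 80% or more. Below 20%, 6 of 7 exons were divisible by 3.

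**Figure D3:**
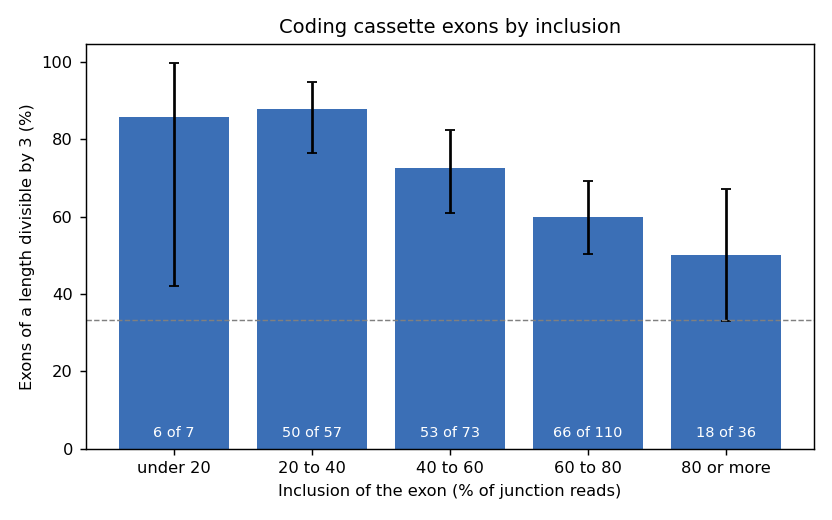
Percentage of coding cassette exons with a length divisible by 3 (bars, starting at 0) by inclusion of the exon (% of junction reads), with exact 95% intervals of counting error and the number of exons in each bar. The dashed line marks 1 length in 3, and the bars run from 87.7% at an inclusion of 20 to 40% down to 50% at 80% or more.

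The authors' contigs, stretches of continuous signal from the same libraries, covered 532 of the 535 cassette exons wholly and the other 3 in part. A single contig spanned the exon and both neighbouring exon edges at 212, so its level says nothing of inclusion there. For the 323 exons in a contig apart from a flank, the exon's level had a median of 65.8% of the flanks. The median was 42.4% for the 122 with an inclusion of at most 50% and 70.7% for the 201 above it. Across these 323 exons Spearman's rho of inclusion and relative level was 0.23, and exons are not independent replicates and share libraries.

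Transcript tables gave a second view of the same choice, on the authors' model of whole transcripts. For 991 named ends, the share of TPM in transcripts with only the shorter intron could be set beside its share of the junction reads of both introns. The 2 shares differed by a median of 15.3 points, by at most 10 points at 360 ends and by more than 30 points at 196. They favoured the same intron at 681 ends (68.7%), with a Pearson r of 0.44 and a Spearman rho of 0.45 across ends, which share libraries. Between replicates 1 and 2, the transcript share moved by a median of 2.72 points. For Cd8a the transcript share of the shorter intron was 51.01% and 50.2% in replicates 1 and 2, beside 69.2% of the junction reads of both introns at the donor and 49.8% at the acceptor. For Pcbp2 it was 74.2% and 75.4%, beside 75.5% at its donor. At the acceptor after the Pcbp2 exon the junction reads were nearer to even, with 3513 from the exon and 3232 past it. For Bcl11b the transcript share was 20.5% and 20.2%, beside 48.8% and 43.9% of the junction reads at its donor and acceptor. For Satb1 it was 8.81% and 8.18%, beside 34.2% at the donor. For Runx1 it was 95.2% and 95.4%, beside 59.96% at the donor. For Ptprc it was 68.5% and 63.9%, beside 47.6% at the donor and 32.9% at the acceptor. For Ikzf1 it was 8.13% and 11.2% by the introns of the donor, beside 26.7%. By those of the Ikzf1 acceptor it was 14.4% and 15.8%, beside 55.9%.

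**Figure D4:**
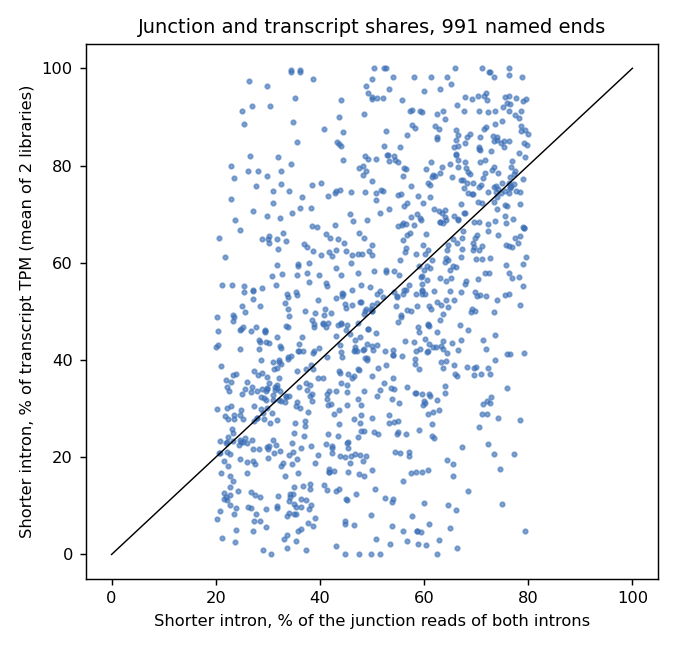
Share of the shorter intron among transcript TPM (%, mean of 2 libraries) against its share of the junction reads of both introns (%), 1 point for each of 991 named ends, with the line of equal shares. Points spread on both sides of the line, with a median distance of 15.3 points.

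Between the library entries, the share at a balanced end moved by a median of 3.81 points, with an upper quartile of 8.15 points. The median was 5.02 points for ends within 1 gene and 2.87 for those named in part. It was only 1.57 for ends between genes and 1.36 for unnamed ends, so the pooled median is below that within 1 gene. Both junctions kept at least 20% of the reads in each library taken alone at 1917 of 2110 ends (90.9%). The ends were chosen on the summed reads of these 2 libraries, so the rule fixes this share in part. The exact test of the most read junction against the rest, adjusted over 71498 shared ends of the whole list, called 369 ends (0.516%). Among ends with at least 100 reads it called 0.651%. Of the 2105 balanced ends tested, 77 (3.66%) were called, with a median difference of 14.6 points, and 54 of these were named. The power of this test rises with reads and with even shares, so the higher percentage is not read as particular to balanced ends. It compares the reads of 2 libraries of 1 group, not conditions.

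The named ends with the largest differences, chosen after their values were seen, lay in genes of several kinds, and those of Fhl2, Tpm1, Ndrg4 and Fxyd1 are given first. Fhl2, a LIM protein of heart, had 26 and 53 reads for the shorter and 0 and 92 for the longer intron into 1 acceptor, or 100% and 32.5% for the shorter. The longer, the most read, took 0% and 56.4% (adjusted p of 8.14e-06, Fisher's exact test). Tpm1, a tropomyosin, had 147 and 173 reads for the shorter and 14 and 201 for the longer, or 87.0% and 42.8% (adjusted p of 8.58e-20 in that test). Ndrg4, a gene of heart and brain, had 7 and 160 reads into an exon and 61 and 67 past it, or 10.3% and 69.9%. Fxyd1 (phospholemman), a regulator of the sodium pump in muscle, had 16 and 183 reads for the shorter and 85 and 115 for the longer intron, or 15.4% and 59.0%. In each of these genes 1 of the introns had at most 16 reads in the first entry and at least 92 in the second.

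Pkm, pyruvate kinase, whose alternative exons distinguish the M1 form of muscle from the M2 form of growing cells, had 107 and 83 reads for the shorter and 113 and 400 for the longer intron. The longer, the most read, took 50.7% and 82.8% (adjusted p of 2.82e-14, Fisher's exact test). Pkm transcripts with only the shorter intron held 95.1% and 89.3% of the TPM of both kinds in replicates 1 and 2. The transcript shares thus favoured the other intron than the junction reads, and which form prevailed is uncertain. Atp5g1, a subunit of ATP synthase, had 95 and 484 reads from the nearer and 137 and 173 from the farther of 2 donors that lie only on annotated first exons. Atp5c1, another subunit, had 20 and 43 reads from an exon and 8 and 92 past it. Smtn (smoothelin) had 4 and 46 reads for the shorter intron and 87 and 87 for the longer. Pitpnb, a lipid transfer protein, had 43 and 25 reads for the shorter and 28 and 69 for the longer. Phc3, a Polycomb protein, had 68 and 28 for the shorter and 48 and 69 for the longer. Cnfn (cornifelin), a gene of the epidermis, had 38 and 31 for the shorter and 38 and 110 for the longer. Pitpnb, Phc3 and Cnfn thus had larger shares of the longer intron in the second entry.

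Heart and muscle markers also differed between the numbered replicates, which no label ties to the library entries. Actc1, the actin of heart, stood at 57.68 TPM in replicate 1 and 574.39 in replicate 2, Mb (myoglobin) at 15.13 and 437.76, and Nppa (atrial natriuretic peptide) at 1.36 and 154.09. Fhl2 itself was at 4.6 and 46.49 TPM and Tpm1 at 34.69 and 186.88. Tpm1 transcripts with the shorter intron held 52.7% of the TPM of both kinds in replicate 1 and 9.05% in replicate 2. In the junction list, a Myh6 intron of the heart myosin had 21 reads in the first entry and 441 in the second. Its acceptor was also joined to Myh7, so these reads belong to the ends between genes given below and are uncertain. The part of muscle RNA in the library differences was not tested. Of the 45 called named ends with transcript shares, 38 moved the same way from replicate 1 to 2 as from the first to the second entry, and 14 of 15 did among those over 20 points. These ends were called on the junction reads, and both shares come from the same 2 libraries, so the counts are not independent evidence.

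**Figure D5:**
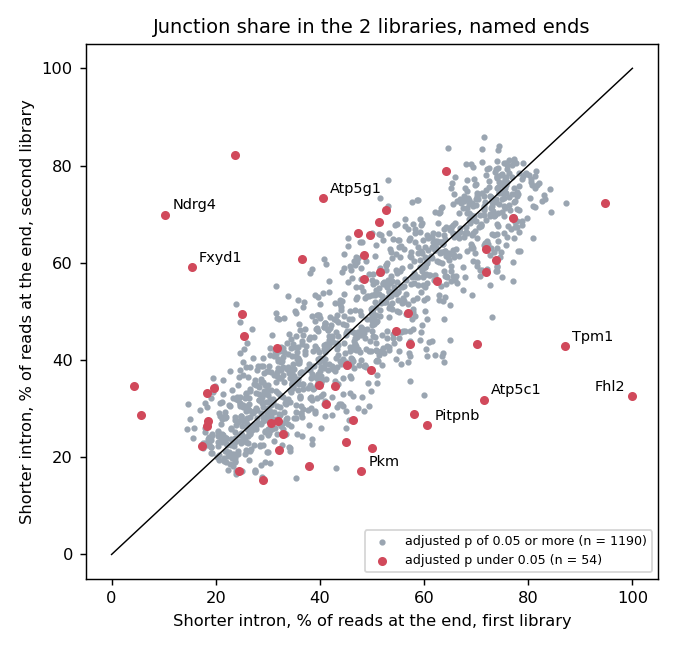
Share of the shorter intron (% of all reads at the end) in the second library entry against the first, 1 point for each of 1244 named ends, with the line of equal shares. Red points are the 54 ends with an adjusted p under 0.05 by Fisher's exact test of the most read junction at the end. Ndrg4 and Fxyd1 lie far above the line, and Tpm1, Fhl2 and Pkm far below it.

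Ends that joined different genes formed a group of their own. The 217 ends fell in 67 sets of genes, mostly of neighbouring and similar copies, and 91 lay on chromosome 17, which held 278 of all 2110 ends (13.2%). None of these ends had the annotation flag on all junctions, against 960 of the 1284 ends within 1 gene. The grouping itself largely fixes this, as it requires sites named to different genes. Both junctions had exactly equal reads in each library at 55 (25.3%, exact 95% interval 19.7% to 31.7%), against 13 of the 1284 (1.01%, 0.540% to 1.73%). Reads of near-identical copies can be placed on either, so all values of these ends are uncertain, and the placing of shared reads is not given in the sources used here.

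The most read of them joined Trbc1 and Trbc2, the constant regions of the T cell receptor beta chain. At a donor of Trbc1, 12124 and 18402 reads stayed within Trbc1, and 7299 and 12130 led to Trbc2, 38.5% of the end's reads. The same cross-gene junction took 37.4% at the Trbc2 acceptor, where 12770 and 19755 reads stayed within Trbc2. Hbb-bs and Hbb-bt, adult beta globins, were joined by 2933 reads at a donor where the junction within Hbb-bs also had 2933. Ly6a (Sca-1) and Ly6c1 were joined by 390 and 673 reads, equal to those within Ly6a at that acceptor.

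Genes whose symbols begin with H2, of the mouse MHC, made up 44 of the 217 ends by their shared site. H2-T10 and H2-T22, nonclassical class I genes, were joined at 12 ends. At the most read of these, 653 and 952 reads stayed within H2-T22 and 464 and 605 led from H2-T10. H2-DMb1 and H2-DMb2, chains of the peptide-exchange factor of class II, were joined at 7 ends. The pseudogenes Tmem181b-ps and Tmem181c-ps were joined at 14 ends, with 134 and 180 reads for each junction at a donor whose acceptors lay 377328 bases apart.

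Equal reads also occurred without a second gene name. Of the 239 unnamed ends, 86 (36.0%) had equal reads, 28 of them within 1 Mb of chromosome 14 with a median distance of 139684 bases. Wdfy1 had 6 balanced ends, all annotated and all 7442 bases apart, and the reads were equal at 6 of 6. At 1 of these Wdfy1 donors each junction had 54 and 82 reads. Over all named ends, equal reads were found at 9 of 1244.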

How the data were processed

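RNA longer than 200 nucleotides was sequenced as paired 76-base reads, per the labels. The deposited junction list on mm9 gives whole read counts per junction over both libraries, a name with 2 library counts, which the authors did not tie to numbered samples, and a reproducibility score that was not used. The deposited contig list, on mm9, gives a signal level whose normalization is not stated. The deposited gene and transcript tables hold TPM and expected counts on mm10 with GENCODE M4, per the text files of the authors. Aligner and junction caller: not given in the sources used here.

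The members and gene lists were chosen with earlier results of these data known. No coordinates were converted between builds: names came from exact lengths of GENCODE M21 introns that share an end (with 1 length shifted, 14 of 12660 pairs matched), and single sites, chosen after seeing the data, from chains of intron, exon and intron (37 of 200178 shifted chains matched). Library entries were compared, also as a choice made after seeing the data, where each had at least 10 reads, with Fisher's exact test and Benjamini-Hochberg adjustment at 0.05. Members and test were tested on simulated data, the test with reads that varied by counting error only. Named ends were the 10 most read, every end in the gene lists, the 5 most even with at least 200 reads, the 5 longest and 5 shortest distances and the 5 on each side of the share minimum. Intervals are exact (Clopper-Pearson, 95%). Alternatives varied the reads, share, distance, exon length, naming key, unit and library. Python 3.11.15, pandas 2.3.3, numpy 2.4.6, scipy 1.17.1 and matplotlib 3.10.9 were used. The values of 1 listed gene are not reported here.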

Additional observations from a re-analysis of the deposited data

How the results depend on the processing

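With a minimum of 100 reads, 2021 junctions at 1159 ends were found, and with 20 reads 6854 at 3909. Other shares, distances and sums gave 2540 to 4904 junctions and 1446 to 2793 ends, within 1.5 times the values above. With 25 reads of 1 entry alone, a choice made after seeing the data, junctions ranged from 3302 to 4096 and ends from 1884 to 2352. Of the 2110 ends, 1736 were found again from the first entry and 1983 from the second. The 2110 ends were chosen on the summed reads of both entries, so the rule fixes this recurrence in part. Cassette exons rose to 1310 where 1 read sufficed for the flanking junction. Coding exons divisible by 3 came to 76.1% with 100 reads. With expected counts, transcript and junction shares differed by a median of 18.4 points, and without either replicate by 15.6 to 15.8. All other alternatives kept their values within these limits. With at least 20 reads per library 79 balanced ends differed. No paired analysis was possible because the series has 1 group. Depth limits the shares most at ends near 100 reads.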
